A study of Mus musculus with 10 samples.

Results

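Adipocyte progenitor and fibroblast genes in the interscapular brown adipose tissue (iBAT) were described through 10 genes chosen by name: Pdgfra, Cd34, Ly6a, Pi16, Dpp4, Dpt, Mfap5, Fbn1, Fn1 and Gsn. They are 10 of the 41249 gene identifiers counted in each mouse, and collagens were left out of the choice. Libraries were made from the RNA of the whole depot of 5 Axl KO and 5 WT male mice, 1 per mouse. All mice of both genotypes were on a C57BL6/N background. According to the sample records they received HFD from an age of 6 to 8 weeks for 24 weeks. The study's text gives a slightly longer diet, and its methods place the start of HFD in this line at 8 to 10 weeks of age. The Axl KO mice lack the receptor tyrosine kinase AXL constitutively in the whole body, through a knockout-first cassette in an intron of Axl that traps its transcript, and the line came from 2 embryonic stem cell clones. A whole-body deletion does not single out the progenitors, and a whole-tissue library does not separate them from adipocytes or vessels.

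White and brown adipose tissue hold a stromal compartment of fibroblast-like cells around the adipocytes and vessels, and some of these cells can become adipocytes. PDGFRA on the cell surface marks most of them. A fibroblast-like population of the connective tissue sheaths, often called interstitial progenitors, is recognized by Pi16 and Dpp4, whereas more committed preadipocytes lose these genes. The same cells secrete much of the fibrous matrix of the depot, including fibronectin, dermatopontin and the microfibrils of elastic fibres. Cd34 and Ly6a also belong to endothelial cells, and Gsn is abundant in adipocytes too, so at least these 3 genes are not specific to progenitors.

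Library totals ran from 5431014 to 9580215 counts, and 13739 genes had a mean level above 1 CPM (counts scaled to the library total) over the 10 mice and were tested. The levels given below are CPM scaled to library totals adjusted by TMM, edgeR's correction for composition. All 10 progenitor and fibroblast genes passed this filter and had counts in every mouse. Axl, the deleted gene (chr7:25757273-25788705, minus strand), had 13, 13, 15, 3 and 9 counts in the Axl KO mice and 383, 361, 357, 224 and 359 counts in the WT mice. Skeletal muscle genes varied widely between mice: the sum of 16 such genes was 18.7 to 9393 CPM in Axl KO mice, with 73.9 CPM in mouse 1 and 18.7 CPM in mouse 2, and 1892 to 9891 CPM in WT mice; all 16 were tested, none was at 0, and 0 had an unadjusted p under 0.05 (edgeR). Each difference between genotypes given here is a log2 fold change of Axl KO against WT from edgeR's quasi-likelihood test, with its standard error, and adjusted p-values follow Benjamini and Hochberg over all 13739 genes.

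Of the 10 genes, 9 had lower mean levels in Axl KO than in WT iBAT and 1, Ly6a, had a higher one, and none passed the threshold of an adjusted p of 0.05, in edgeR or in DESeq2. The log2 fold changes lay between -0.44 for Fn1 and 0.27 for Ly6a, and their median was -0.22. Over all tested genes the median was -0.00078, and 50.3% were lower in Axl KO. Across the transcriptome, 1 gene (Axl, 0.00728% of those tested) had an adjusted p under 0.05. At an unadjusted p under 0.05, Ly6a was the only one of the 10 genes, in the direction in which 4.52% of all genes were called higher, and 0 of the 10 were called lower, against 3.86% of all genes. In 0 of the 10 genes were the genotypes without overlap, against 1.36% of all genes. In whole tissue, fewer cells of a type and less RNA per cell cannot be told apart.

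**Figure D1:**
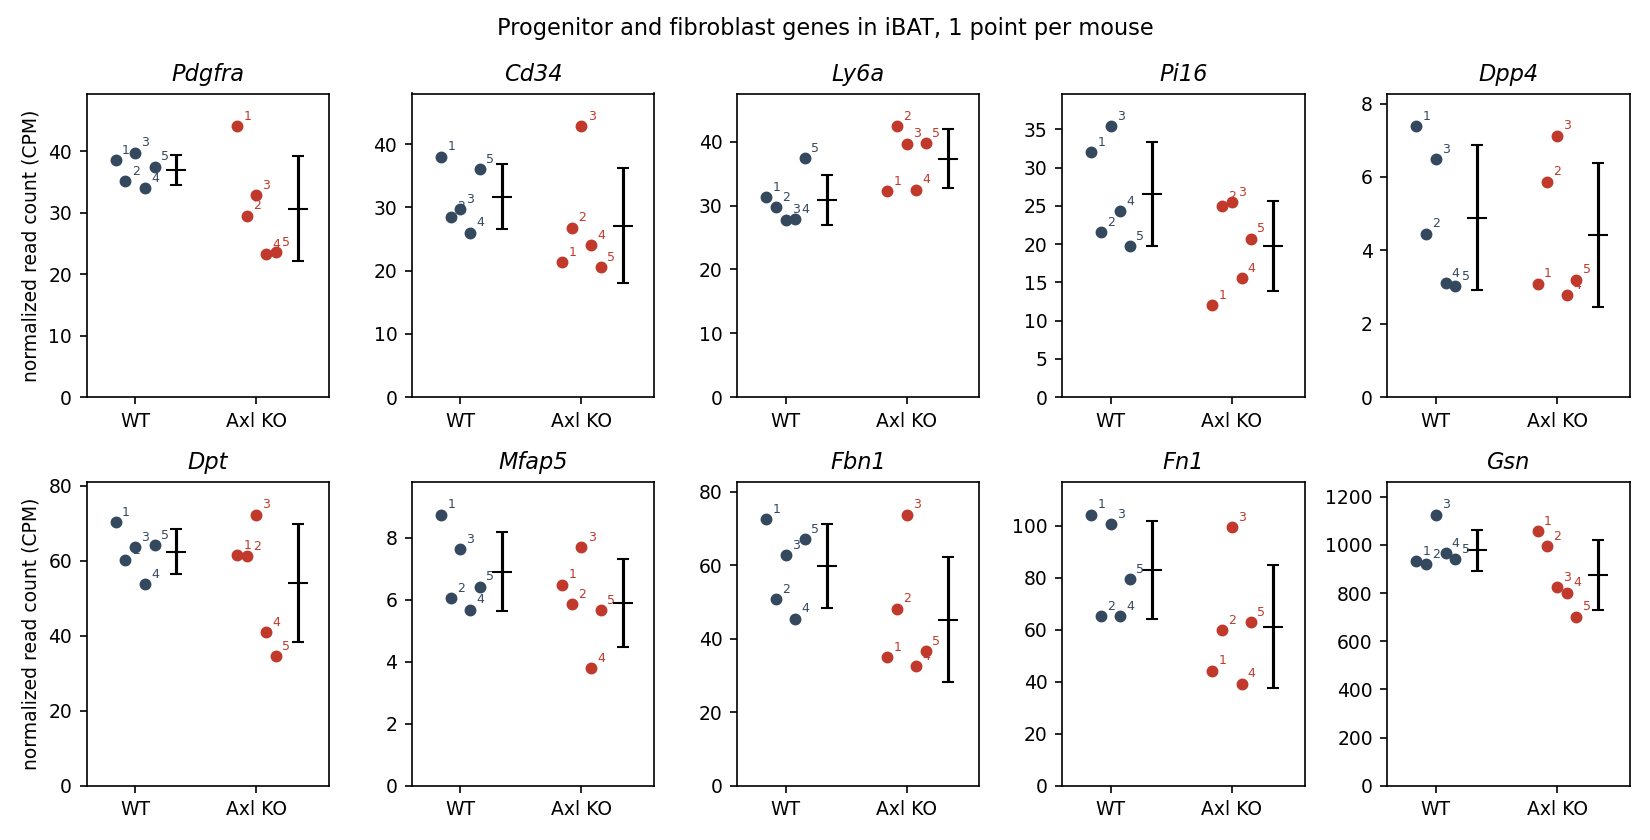
Normalized read count (CPM, axis from 0) of each of the 10 genes in each mouse; points are mice with their replicate number, and the black bars give the mean ± SD of 5 mice per genotype. The genotypes overlap for every gene, and Pdgfra and Dpt are tightly grouped in WT mice and spread widely in Axl KO mice.

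Pdgfra (ENSMUSG00000029231, GRCm38 chr5:75152292-75198215, plus strand) encodes the receptor for platelet-derived growth factors that is used to sort adipocyte progenitors. Its level was 44.1, 29.5, 32.8, 23.2 and 23.6 CPM in Axl KO mice 1 to 5 and 38.6, 35.1, 39.7, 33.9 and 37.4 CPM in WT mice 1 to 5. Thus 4 Axl KO mice lay below all WT mice and Axl KO mouse 1 lay above all of them. The Axl KO mean was 30.6 ± 8.54 CPM and the WT mean 37.0 ± 2.40 CPM (SD, n = 5 each). The log2 fold change was -0.27 ± 0.147 (SE, edgeR, adjusted p = 0.635), and a two-sided exact permutation test gave p = 0.143. Without Axl KO mouse 1 it was -0.43 and without Axl KO mouse 4 it was -0.18, and the adjusted p stayed above the threshold in both. Axl KO mouse 1 also had one of the lowest skeletal muscle sums. Without Axl KO mice 1 and 2, a choice made after seeing the data, Pdgfra differed by -0.47. In that fit the other genes moved either way, and the part of muscle RNA in the result was not tested.

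Cd34 (ENSMUSG00000016494, chr1:194938819-194961279, plus strand) encodes a sialomucin of progenitors and endothelium. It had 21.3, 26.8, 42.9, 24.1 and 20.6 CPM in the Axl KO mice and 38.0, 28.5, 29.8, 26.0 and 36.1 CPM in the WT mice. Axl KO mouse 3 was the highest of all 10 mice, while 3 of the other Axl KO mice lay below every WT mouse. The log2 fold change was -0.21 ± 0.186 (SE, edgeR, adjusted p = 0.766). It was -0.45 without Axl KO mouse 3 and -0.13 without Axl KO mouse 5. Beside it, the sum of 15 endothelial genes was 892 to 1110 CPM in Axl KO and 939 to 1308 CPM in WT mice. At an unadjusted p under 0.05 2 of the 15 were lower and 0 higher, against 3.86% and 4.52% of all tested genes. The part of endothelial cells in the Cd34 level was not tested.

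Ly6a (ENSMUSG00000075602, chr15:74994877-74998031, minus strand) encodes the GPI-anchored surface antigen SCA-1, which is used with PDGFRA and CD34 to isolate progenitors. It was the exception among the 10 genes. Its level was 32.3, 42.5, 39.7, 32.5 and 39.8 CPM in Axl KO mice and 31.3, 29.8, 27.8, 27.9 and 37.4 CPM in WT mice, so that 3 Axl KO mice lay above every WT mouse and 4 WT mice lay below every Axl KO mouse. The means of 37.4 ± 4.65 and 30.9 ± 3.96 CPM (SD, n = 5 each) gave a log2 fold change of 0.27 ± 0.103 (SE, edgeR, p = 0.0195, adjusted p = 0.572), and a two-sided exact permutation test gave p = 0.0556. With 1 mouse left out, its log2 fold change lay between 0.22 and 0.35. The unadjusted p in edgeR then ranged from 0.0029 without WT mouse 5 to 0.0557 without Axl KO mouse 2, and was 0.0508 without WT mouse 3. Of the 50-base windows along its transcripts, 15.0% also occur in the neighbouring Ly6c1, a gene of endothelium and some stromal cells, so reads may have been split between them depending on the authors' counting. Ly6c1 itself had a log2 fold change of 0.13 ± 0.0983 (SE, edgeR, unadjusted p = 0.195).

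Pi16 (ENSMUSG00000024011, chr17:29317680-29330593, plus strand) encodes a secreted or membrane-tethered peptidase inhibitor and marks the interstitial progenitors. It had 12.1, 25.0, 25.5, 15.6 and 20.7 CPM in Axl KO mice and 32.0, 21.5, 35.5, 24.3 and 19.8 CPM in WT mice. The 2 lowest values were from Axl KO mice and the 2 highest from WT mice, and the other 6 were mixed. The log2 fold change was -0.42 ± 0.213 (SE, edgeR, adjusted p = 0.608, exact permutation p = 0.143), and the Axl KO mean was 74.3% of the WT mean.

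Dpp4 (ENSMUSG00000035000, chr2:62330073-62412231, minus strand), a membrane dipeptidase that marks the same population, was the least abundant of the 10 genes, with 17 to 61 counts per mouse. It had 3.09, 5.87, 7.13, 2.77 and 3.21 CPM in Axl KO mice and 7.39, 4.46, 6.49, 3.10 and 3.03 CPM in WT mice. Each genotype held high and low mice, and the log2 fold change of -0.13 ± 0.324 (SE, edgeR, adjusted p = 0.930) was smaller than its error. It turned to 0.0014 without Axl KO mouse 4 and to 0.05 without WT mouse 1.

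Most other genes of the interstitial population gave values on the same side. Of 16 such genes 12 were tested, 11 of them had negative log2 fold changes, and the median was -0.25. The gene on the other side was Ly6c1 (0.13). Ly6c1 also belongs to endothelium, and Tek of this list is among the endothelial genes summed above, so the list is not specific to this population. At an unadjusted p under 0.05 1 was lower and 0 were higher, and none had an adjusted p under 0.05. The 1 gene was Creb5, a transcription factor, with 5.24 ± 1.23 CPM in Axl KO and 7.91 ± 1.46 CPM in WT mice (SD, n = 5 each; log2 fold change -0.57 ± 0.183 SE, edgeR, adjusted p = 0.572). Wnt2, Bmp7, Has1 and Uchl1 of this list lay below the filter. Of 39 preadipocyte and general stromal genes 37 were tested, with a median of -0.09, and 4 were lower and 1 higher at an unadjusted p under 0.05. Over all tested genes 3.86% were lower and 4.52% higher at that threshold, and 1.36% were without overlap between genotypes. Both lists were chosen with earlier results of these data known. Smoc2, a secreted calcium-binding matrix protein, had 27.7, 38.6, 37.6, 29.9 and 30.5 CPM in Axl KO mice and 42.5, 45.1, 51.6, 45.8 and 43.0 CPM in WT mice, without overlap (log2 fold change -0.47 ± 0.0971 SE, edgeR, adjusted p = 0.572). The complement gene C3 was the one on the higher side, with 684 ± 301 CPM in Axl KO and 425 ± 89.2 CPM in WT mice (SD, n = 5 each). Gas6, the ligand of AXL, was among the 4 lower genes with a log2 fold change of -0.33, and Tcf21 was at 0 in all mice.

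**Figure D2:**
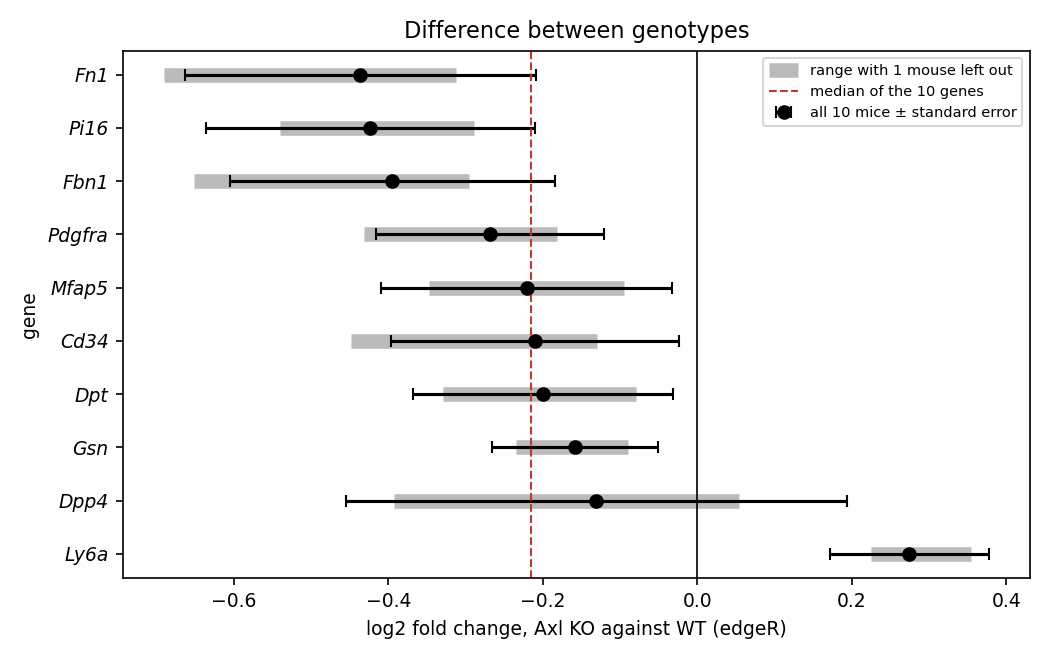
Log2 fold change of Axl KO against WT (edgeR, 5 mice per genotype) for each gene; points with bars are the estimate ± standard error, grey bands the range when any 1 mouse is left out, and the dashed line the median of the 10 genes, -0.22. Ly6a is the single gene to the right of 0, and the band of Dpp4 crosses 0.

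Dpt (ENSMUSG00000026574, chr1:164796644-164824266, plus strand) encodes dermatopontin, a small matrix protein shared by fibroblasts of many tissues. Its level was 61.5, 61.3, 72.3, 41.0 and 34.5 CPM in Axl KO mice and 70.3, 60.1, 63.6, 53.8 and 64.2 CPM in WT mice. Axl KO mice 4 and 5 were lowest of all 10 mice and Axl KO mouse 3 was highest, and the other 2 fell within the WT range. The log2 fold change was -0.20 ± 0.168 (SE, edgeR, adjusted p = 0.753).

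Fbn1 (ENSMUSG00000027204, chr2:125300594-125507993, minus strand) encodes fibrillin-1, the main subunit of microfibrils, and also the precursor of the hormone asprosin. It had 34.9, 48.2, 73.8, 32.5 and 36.6 CPM in Axl KO mice and 72.6, 50.7, 62.8, 45.5 and 67.2 CPM in WT mice. Axl KO mice 1, 4 and 5 lay below all WT mice, and Axl KO mouse 3 above them. The log2 fold change of -0.39 ± 0.211 (SE, edgeR, adjusted p = 0.626, exact permutation p = 0.143) became -0.65 without Axl KO mouse 3 and -0.30 without Axl KO mouse 4. Mfap5 (ENSMUSG00000030116, chr6:122505845-122529290, plus strand), which encodes a glycoprotein of the microfibrils, had 26 to 66 counts per mouse. Its level was 6.49, 5.87, 7.71, 3.79 and 5.66 CPM in Axl KO mice and 8.75, 6.05, 7.65, 5.69 and 6.43 CPM in WT mice, with Axl KO mice 4 and 5 below every WT mouse and WT mouse 1 above every Axl KO mouse (log2 fold change -0.22 ± 0.188 SE, edgeR, adjusted p = 0.759).

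Fn1 (ENSMUSG00000026193, chr1:71585520-71653200, minus strand) encodes fibronectin, onto which fibrillin and collagen fibres are assembled. It had 44.2, 59.8, 99.3, 39.2 and 63.0 CPM in Axl KO mice and 104, 65.2, 101, 65.1 and 79.3 CPM in WT mice. All Axl KO mice except mouse 3 lay below every WT mouse. Fn1 had the lowest log2 fold change of the 10, -0.44 ± 0.227 (SE, edgeR, adjusted p = 0.617). It became -0.69 without Axl KO mouse 3 and -0.31 without Axl KO mouse 4. The two-sided exact permutation test gave p = 0.103.

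The partners of these matrix proteins were compared in the same way. Of 21 elastic fibre and microfibril genes 18 were tested, and the median log2 fold change was -0.22. At an unadjusted p under 0.05 6 were lower and 0 higher, against 3.86% and 4.52% of all tested genes. The lists were chosen with earlier results of these data known. Tnxb, encoding the matrix glycoprotein tenascin-X, had 129, 135, 141, 106 and 129 CPM in Axl KO and 210, 145, 192, 142 and 181 CPM in WT mice, and Efemp1, encoding fibulin-3, had 18.1, 21.1, 19.9, 16.2 and 17.9 CPM in Axl KO and 22.4, 24.0, 28.8, 21.9 and 23.3 CPM in WT mice. Both were without overlap between genotypes, as were 1.36% of all tested genes. Their log2 fold changes were -0.44 and -0.37, with an adjusted p of 0.572 each. Fbln2 and the latent TGF-beta binding proteins Ltbp1, Ltbp3 and Ltbp4 were the other 4, between -0.32 and -0.22, whereas Eln, which encodes elastin itself, was at -0.01 and its p did not pass. Of 22 fibronectin receptors and assembly genes 21 were tested, the median was -0.17, 3 were lower (Tns1, Lims1 and Tln1, which link integrins to actin) and 1 was higher (the heparan sulfate proteoglycan gene Sdc4, 0.59). None of these genes passed the adjusted threshold.

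**Figure D3:**
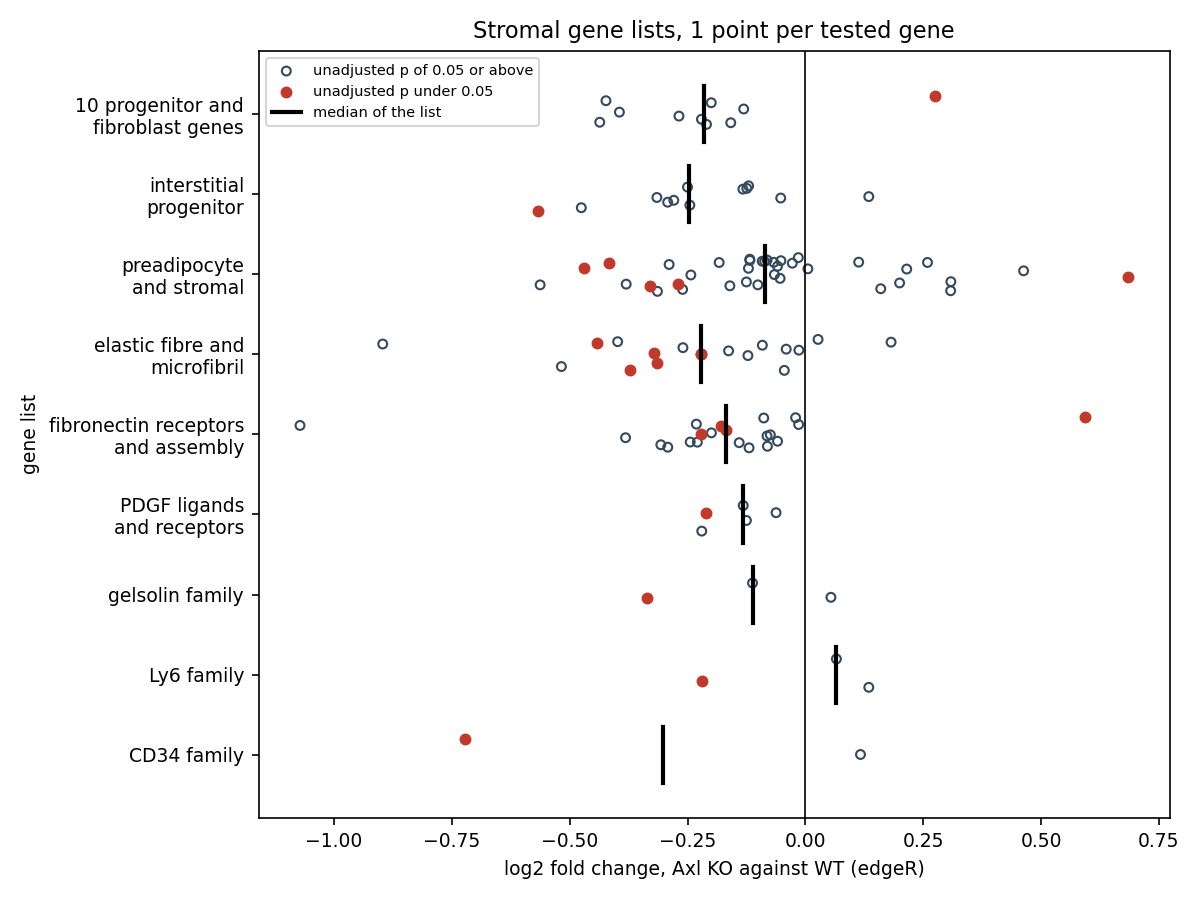
Log2 fold change of Axl KO against WT (edgeR) of each tested gene of 9 lists, with filled points for an unadjusted p under 0.05 and a black line at each list's median. The medians lie between -0.30 (CD34 family) and 0.07 (Ly6 family), and no gene shown has an adjusted p under 0.05.

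Gsn (ENSMUSG00000026879, chr2:35256380-35307892, plus strand) encodes gelsolin, which severs and caps actin filaments and also exists as a secreted plasma form. It was the most abundant of the 10 genes, with 3725 to 9718 counts per mouse. The levels were 1058, 994, 825, 802 and 702 CPM in Axl KO mice and 934, 921, 1126, 966 and 942 CPM in WT mice. Axl KO mice 3, 4 and 5 lay below all WT mice and the other 2 within their range (log2 fold change -0.16 ± 0.107 SE, edgeR, adjusted p = 0.686). Without Axl KO mice 1 and 2, the mice with the lowest muscle sums and a choice made after seeing the data, it was -0.33. In that fit Dpt (-0.33) and Mfap5 (-0.26) also differed more than with all mice. Pi16 (-0.36), Fbn1 (-0.31), Fn1 (-0.30) and Cd34 (-0.10) differed less, and Dpp4 and Ly6a were nearly unchanged. Of 7 relatives of gelsolin 3 were tested, with a median of -0.11. Svil, encoding supervillin, was the 1 lower at an unadjusted p under 0.05 (-0.34), against 3.86% of all tested genes.

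The families of Pdgfra, Cd34 and Ly6a each held 1 gene lower and 0 higher at an unadjusted p under 0.05, against 3.86% and 4.52% of all tested genes. Of 6 PDGF ligands and receptors other than Pdgfra 5 were tested, all 5 with negative log2 fold changes and a median of -0.13, and Pdgfd (-0.21) was the 1 with an unadjusted p under 0.05. Of the 2 relatives of Cd34, Podxl2 was lower (-0.72, at 1.00 and 1.63 CPM) and Podxl was at 0.12. Their median was -0.30. Of 12 Ly6 family genes 3 were tested, with a median of 0.07 and 2 of the 3 positive, and Lynx1 was the lower one (-0.22).

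Levels between genes were compared per kilobase of exon in WT mice. Gsn had 309.7 CPM per kb, followed by Dpt (36.2), Ly6a (25.6), Fn1 (7.10), Fbn1 (4.93), Cd34 (4.35), Pi16 (4.18), Pdgfra (3.69), Mfap5 (1.93) and Dpp4 (0.774). The order in Axl KO mice was identical. Gsn above Dpt, Ly6a above Fn1, Fn1 above Fbn1, Pdgfra above Mfap5 and Mfap5 above Dpp4 held in 10 of 10 mice. Cd34 exceeded Pi16 in 6 and Pi16 exceeded Pdgfra in 7 of 10 mice, so these neighbours did not differ beyond their spread. With the longest transcript as the length in place of all exons, 5 of the 10 positions changed.

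The spread between mice of one genotype was measured as the SD of log2 CPM. It was larger in Axl KO than in WT mice for 10 of the 10 genes, against 62.9% of all tested genes, and its median over the 10 genes was 0.435 in Axl KO and 0.238 in WT, against 0.189 and 0.160 over all genes. Pdgfra had the largest ratio, with SDs of 0.379 and 0.0938, followed by Dpt with 0.447 and 0.142. For Pdgfra, Dpt and Gsn the Axl KO SD stayed above the WT SD whichever Axl KO mouse was left out. For Fn1 it did so only just, at 0.330 without Axl KO mouse 3 against 0.326 in WT. For Ly6a and Dpp4 the 2 SDs were nearly the same from the start. WT mice were not left out in this comparison. The difference in spread was not tested.

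**Figure D4:**
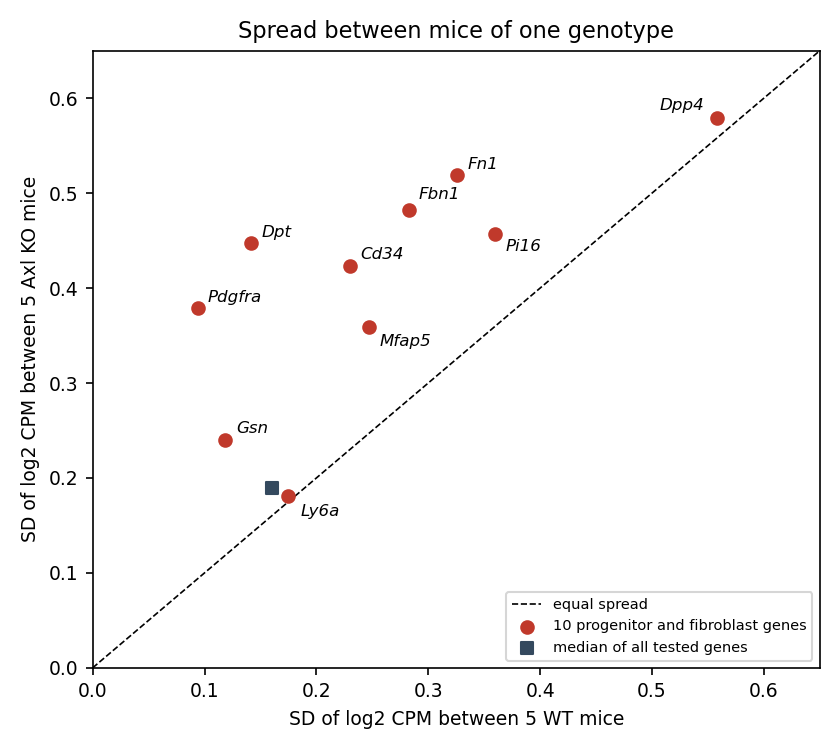
SD of log2 CPM between the 5 Axl KO mice against that between the 5 WT mice, 1 point per gene, with the line of equal spread and, as a square, the median of all tested genes (0.160 and 0.189). All 10 genes lie above the line, Ly6a and Dpp4 only just.

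Part of the variation was shared between some of the genes. Axl KO mouse 3 was the highest Axl KO mouse for 7 genes (Pi16, Dpp4, Dpt, Mfap5, Fbn1, Cd34 and Fn1), Axl KO mouse 4 the lowest for 5 (Pdgfra, Dpp4, Mfap5, Fbn1 and Fn1), and Axl KO mouse 5 the lowest for 3 (Dpt, Cd34 and Gsn). WT mouse 1 was the highest WT mouse for 6 genes and WT mouse 4 the lowest for 6. For Ly6a the highest mice were Axl KO mouse 2 and WT mouse 5, and the lowest Axl KO mouse 1 and WT mouse 3.

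**Figure D5:**
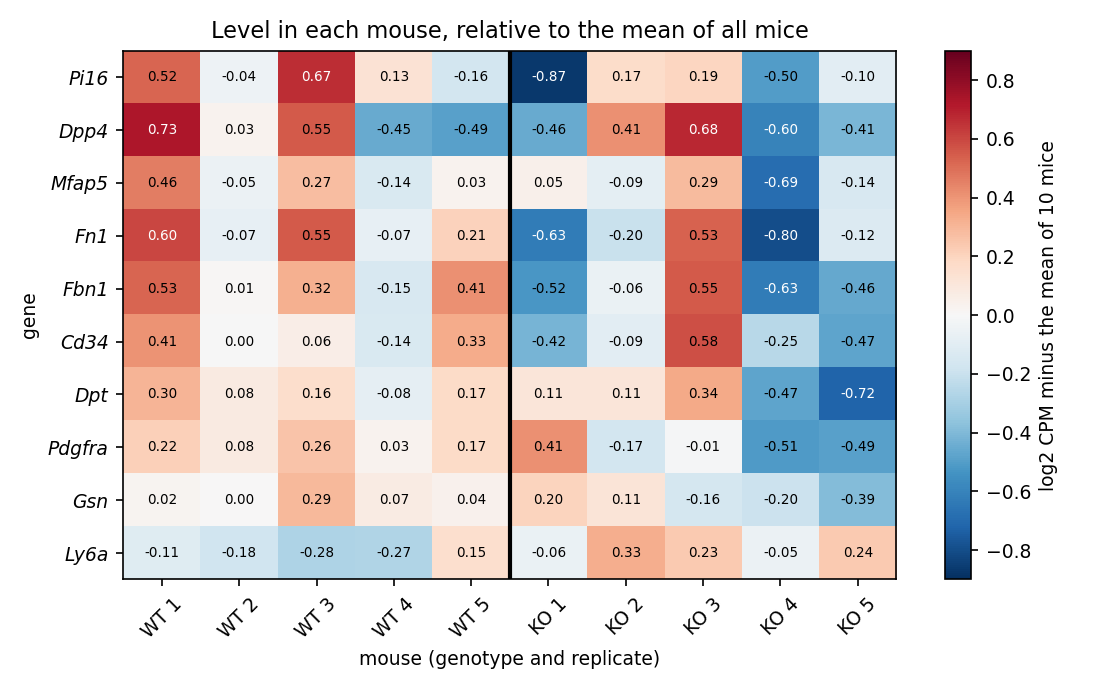
Level of each gene in each mouse as log2 CPM minus the mean of the 10 mice (red above, blue below; numbers give the values). Fn1, Fbn1, Cd34, Pi16 and Dpp4 are above their mean in WT mice 1 and 3 and Axl KO mouse 3 and below it in Axl KO mice 4 and 5, Pdgfra and Gsn are above it in Axl KO mouse 1, and Ly6a is above it in Axl KO mice 2, 3 and 5 and WT mouse 5.

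Over the 10 mice, which share their libraries and scaling, the genes whose levels were most like that of Pdgfra among 13738 others were Col6a1 (Pearson's r = 0.95, Spearman's rho = 0.90, permutation p = 0.00013 for r, adjusted p = 0.522), Col6a3 (r = 0.94), Phldb1 (r = 0.93), Serbp1 (r = 0.93) and Lmo1 (r = 0.92). Without the 2 mice farthest from the median of Pdgfra, r with Col6a1 was 0.81, and centred on each genotype it was 0.94. Among the 10 genes, Gsn and Dpt were most like Pdgfra, each with r = 0.81 (adjusted permutation p = 0.645 for each). Without the 2 farthest mice r fell to 0.49 and 0.09, and centred on each genotype it was 0.75 and 0.77. Leaving out those mice also narrows the range of Pdgfra, so the fall cannot show whether a relation rested on them. Pi16 had r = 0.14 and Ly6a r = -0.43 with Pdgfra. With the levels as they are, 0 of the 13738 genes passed the adjusted threshold with Pdgfra. With levels centred on each genotype 3 did, Col6a1 among them (adjusted permutation p = 0.0458), and none of the 3 was one of the 10 genes. That permutation shuffled centred values over all 10 mice without allowing for the removed genotype means, so its p-values tend to be too small. The unadjusted permutation p of Col6a1 was 1e-05, the lowest that 100000 permutations can give. Col6a3, with a centred r of 0.95, had an adjusted permutation p of 0.183.

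The same measure was then taken for the other 9 genes, a step added after seeing the data. Cd34 and Fbn1 had r = 0.94 and rho = 0.95, which for Cd34 against all other genes gave an adjusted permutation p of 0.0442 (0.105 for Fbn1 against all other genes). It was 0.91 without the 2 mice farthest from the median of Cd34, and 0.94 when centred on genotype, with an adjusted permutation p of 0.052. Fbn1 and Fn1 had r = 0.93, Fn1 and Pi16 r = 0.85, and Dpp4 and Pi16 r = 0.77, none with an adjusted p under 0.05. The genes nearest to Fn1 and Dpt were collagen genes, Col14a1 (r = 0.95) and Col3a1 (r = 0.97). The gene nearest to Mfap5 was Vcan (r = 0.96), the proteoglycan versican. Their adjusted permutation p was 0.261, 0.0824 and 0.216. The genes nearest to Pi16, Dpp4, Fbn1, Cd34, Ly6a and Gsn were Rev3l, Rps3a1, Tmsb4x, Ezr, Rny3 and Chst1. Ly6c1 stood in place 3 of likeness to Ly6a, with r = 0.89.

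The promoters of 4 genes, Fbn1 and Cd34, whose levels were closely correlated over mice, and Pdgfra and Dpt, which had the largest ratios of spread between genotypes, are shown as RefSeq gives them on GRCm38.p6, from 250 bases before to 50 bases after the annotated start and in the direction of the gene. Windows were found for 7 of the 10 genes; Mfap5, Ly6a and Fn1 are named only. Capitals mark motifs found on either strand, searched as the TATA box (TATAAA), the CCAAT box, the GC box (GGGCGG), an AP-1 site (TGANTCA) and a TEAD site (GGAATG), and no 2 motifs overlapped in the windows shown.
Pdgfra, chr5:75152001-75152300, plus strand: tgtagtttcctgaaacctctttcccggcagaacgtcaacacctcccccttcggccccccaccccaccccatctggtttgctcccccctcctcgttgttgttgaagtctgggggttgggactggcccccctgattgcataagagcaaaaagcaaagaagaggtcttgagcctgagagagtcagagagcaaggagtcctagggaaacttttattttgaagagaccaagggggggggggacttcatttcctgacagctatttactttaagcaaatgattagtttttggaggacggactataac
Dpt, chr1:164796413-164796712, plus strand: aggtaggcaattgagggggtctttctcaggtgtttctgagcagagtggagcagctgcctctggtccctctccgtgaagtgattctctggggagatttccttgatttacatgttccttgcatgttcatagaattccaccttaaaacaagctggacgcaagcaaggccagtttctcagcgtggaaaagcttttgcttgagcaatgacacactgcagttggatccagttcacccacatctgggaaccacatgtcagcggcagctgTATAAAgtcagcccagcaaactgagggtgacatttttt
Fbn1, chr2:125506389-125506688, minus strand: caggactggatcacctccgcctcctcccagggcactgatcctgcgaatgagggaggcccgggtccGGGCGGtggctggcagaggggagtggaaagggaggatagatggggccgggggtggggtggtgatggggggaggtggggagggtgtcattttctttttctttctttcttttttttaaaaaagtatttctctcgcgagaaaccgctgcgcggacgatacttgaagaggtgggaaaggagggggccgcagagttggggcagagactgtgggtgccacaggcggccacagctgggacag
Cd34, chr1:194938571-194938870, plus strand: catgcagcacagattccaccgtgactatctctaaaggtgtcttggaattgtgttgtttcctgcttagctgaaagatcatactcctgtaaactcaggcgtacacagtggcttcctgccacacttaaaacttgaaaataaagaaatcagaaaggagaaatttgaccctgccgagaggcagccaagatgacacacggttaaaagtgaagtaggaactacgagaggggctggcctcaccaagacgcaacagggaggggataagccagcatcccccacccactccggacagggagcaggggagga
The Pdgfra and Cd34 windows held none of the 5 motifs. The Dpt window held a TATA box 12 bases after the start and the Fbn1 window a GC box at position -185 from the start. The Fbn1 window lies wholly inside the span given above for the gene, whose upstream end is 125507993. RefSeq thus places this start within the gene as annotated for the counts. Of all 32851 RefSeq windows of this length, 13.6% held a TATA box, 37.4% a CCAAT box, 35.7% a GC box, 7.81% an AP-1 site and 14.7% a TEAD site. The 4 windows had no motif of the 5 in common. The GC content ran from 48.7% for Dpt to 60.3% for Fbn1, with 51.0% for Pdgfra, against a median of 52.7% over all windows. Absence of a motif says only that these letters are not in this window.

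Markers of other cell types were summed per mouse to give the setting of these values. The marker lists were chosen with earlier results of these data known. Over all tested genes 3.86% were lower and 4.52% higher at an unadjusted p under 0.05. Brown adipocyte genes ranged from 9012 to 12458 CPM in Axl KO and from 7257 to 9425 CPM in WT mice, with 0 of 12 lower and 6 of 12 higher at an unadjusted p under 0.05, led in level by Ucp1 (5572 ± 1200 and 4128 ± 866 CPM; SD, n = 5 each). All 12 had positive log2 fold changes in the same libraries in which 9 of the 10 stromal genes had negative ones, and the part of adipocyte RNA in those values was not tested. Mural genes summed to 846 to 1015 and 950 to 1048 CPM (Axl KO and WT; 1 of 12 lower, 0 higher), macrophage genes to 157 to 283 and 181 to 265 CPM (0 of 10 tested in either direction), and myofibroblast genes, led by Postn, to 121 to 181 and 150 to 161 CPM (0 of 5 tested). Mesothelial genes were close to absent, at 1.99 to 4.53 and 1.72 to 3.59 CPM with Upk3b, Wt1, Bnc1 and Krt8 at 0 in all mice, and tendon and fascia genes summed to 8.89 to 17.4 and 11.1 to 21.6 CPM.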

How the data were processed

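RNA of whole iBAT was measured in 5 Axl KO and 5 WT mice. The authors deposited 1 table per mouse of raw counts per Ensembl gene, without normalization or pooling. The study's methods name Trim Galore and hisat2 on GRCm38, whereas the submitters' processing notes name bcl2fastq, Trimmomatic 0.36, STAR 2.6.1c, DESeq2 and GRCm38.p5; the counting tool and its strand setting are not given in the sources used here, and the methods and labels also differ on rRNA depletion against poly(A) selection. Reads shared by overlapping or near-identical genes are therefore uncertain: 19.0% of 50-base windows of Ly6a and 19.7% of those of Fbn1 occur in another gene, for Fbn1 in Gm9913 on the opposite strand, which had 5 counts in all, and at most 4.93% in the other 8 genes.

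Identifiers were matched to GENCODE M21 on GRCm38 (41163 of 41249). Each mouse counted as 1 replicate, since no 2 libraries came closer than a chi-square of 5.04 per gene. Counts were tested in R 4.3.3 with edgeR 4.0.16 (TMM, quasi-likelihood, no covariate) for genes with a mean above 1 CPM of the plain library total, an adjusted p of 0.05 being the threshold. The procedure was tested on simulated data. Single genes were also compared with two-sided exact permutation tests, whose smallest p for 5 against 5 mice is 0.00794, and correlations with 100000 permutations, adjusted over 13738 genes. Printed CPM are counts scaled to TMM-adjusted totals of the tested genes, and levels between genes were divided by exon length. The SD and the number of counts limit precision: counting error alone is 16.9% of the level for Dpp4, 14.5% for Mfap5 and 1.21% for Gsn.

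The 10 genes, 8 related gene lists and 12 lists of other cell types were chosen with earlier results of these data known. The rule for naming genes took the 10 genes, Axl and the 5 genes most like Pdgfra. It also took up to 4 genes per list with the smallest unadjusted p under 0.05, or the most abundant gene where there is none. Of each marker list it took the most abundant gene too. Not every gene that this rule picks is printed, for example in the endothelial and mural lists. Other names were chosen after their values were seen. Alternatives were DESeq2 1.42.0, RLE size factors, library totals, filterByExpr, no filter, a robust fit, protein-coding genes alone, the replicate number as a block, each mouse left out, genotype centring and the longest transcript.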

Additional observations from a re-analysis of the deposited data

Results flagged for a closer look

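Within the 5 mice of each genotype, the highest or lowest value of each of the 10 genes was set against its nearest neighbour. In 20 groups of 5, where chance gives about 1 such value, 2 stood apart by a gap above 0.71 of the group's range. Cd34 in Axl KO mouse 3 was 42.9 CPM, with the next Axl KO mouse at 26.8 CPM (gap of 0.720 of the range). Gsn in WT mouse 3 was 1126 CPM, with the next WT mouse at 966 CPM (gap of 0.778 of the range).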

How the results depend on the processing

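The number of the 10 genes with an adjusted p under 0.05 was 0 under each alternative, and the number over all tested genes was 1 except with DESeq2, which called 9; the cause was not tested. The median log2 fold change of the 10 genes lay between -0.37 (without Axl KO replicate 3) and -0.15 (without Axl KO replicate 4) when 1 mouse was left out, and between -0.30 and -0.21 under the other alternatives, the former without Axl KO replicates 1 and 2 together, a choice made after seeing the data. Dpp4 ranged from -0.39 (without Axl KO replicate 3) to 0.0014 (without Axl KO replicate 4) and 0.054 (without WT replicate 1); the other 9 genes kept their direction. The number of the 10 genes with an unadjusted p under 0.05 was 1 in the reported analysis (8.38% of all tested genes), 2 with DESeq2 (6.93%), 4 without a filter on low counts (6.49%), and 0 without WT replicate 3 (7.37%) to 5 without Axl KO replicate 3 (14.8%) when 1 mouse was left out. The lowest adjusted p in edgeR under any alternative was 0.128, for Fbn1 without Axl KO replicate 3. With the longest transcript as the length, 5 positions in the order of levels changed, since exons of several transcripts no longer add up.

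The sources used here do not say whether same-numbered mice of both genotypes were paired. The correlations of their deviations over genes were -0.19, 0.37, 0.053, 0.060 and -0.36, and 2 of 10 mice correlated best with their own number. These values do not settle whether the mice were paired, for example as littermates. With the replicate number as a block, 0 of the 10 genes and 1 gene overall had an adjusted p under 0.05, 4 of the 10 had an unadjusted p under 0.05 (7.64% of all tested genes), and the median was -0.24. With 17 to 66 counts per mouse, Dpp4 and Mfap5 are limited by depth as well as by the spread between mice.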

Other observations

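The remaining lists of other cell types were measured in the same libraries. Adipocyte genes in general had a median log2 fold change of 0.06 over 12 tested genes. Plin4 was lower (-0.23) at an unadjusted p under 0.05, as were 3.86% of all tested genes. Schwann cell genes had a median of -0.09 over 7 of 10 genes. Cdh19 was without overlap between genotypes, as were 1.36% of all tested genes. Its level was 11.9 ± 0.724 CPM in Axl KO and 14.3 ± 1.33 CPM in WT mice (SD, n = 5 each). Erythroid genes, led by Hbb-bs, had a median of 0.02 over 5 of 7 genes, and of 12 B and T cell genes the 1 tested, Ighm, had a log2 fold change of -0.43 (edgeR, unadjusted p = 0.268). The 16 skeletal muscle genes had a median of -1.02, with 0 at an unadjusted p under 0.05.

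Over the 10 mice, Cd34 was the gene of the 10 with the most correlated genes: 135 of 13738 other genes had an adjusted permutation p under 0.05 with it, and 48 after centring on genotype, against 0 for each of the other 9 genes before centring and 3 for Pdgfra and 0 for the other 8 after it. The nearest was Ezr, which encodes the membrane-actin linker ezrin (r = 0.98, rho = 0.99). This comparison was made after seeing the data, and the permutation p-values after centring tend to be too small, as given above for Pdgfra.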
